A study of Homo sapiens with 6 samples.

Results

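Open chromatin was examined at 10 genes of the Krüppel-like factor (KLF) and specificity protein (SP) families, KLF2, KLF3, KLF4, KLF5, KLF6, KLF10, KLF13, SP1, SP2 and SP3, of 20007 protein-coding genes in GENCODE release 44. Each gene was taken with 20 kb on either side, which gave windows of 748 kb in all. The samples were MCF10A cells, a non-tumorigenic line from human breast epithelium of WT genotype, grown with horse serum, EGF, hydrocortisone, cholera toxin and insulin. About 50000 cells per sample were held in phosphate-free buffered salt solution for 30 min and then received 50 μM TPA, 30 μM ZnCl2 or nothing (control) for another 30 min, so the control shared the change of medium and differed only in the addition. TPA, Tris(2-pyridylmethyl)amine, binds Zn2+ inside cells, and ZnCl2 supplies it in excess. Each of the 3 groups had 2 libraries, 6 in all. ATAC-seq was used, in which the transposase Tn5 cuts accessible DNA, and the authors listed the open regions of each library separately with a score for each region.

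The members share a C-terminal DNA-binding domain of C2H2 zinc fingers, small folds that each hold a zinc ion, and they bind GC boxes and the related CACCC boxes of promoters. SP1 and SP3 act at the GC-rich promoters of many housekeeping genes, and SP3 can activate or repress. Among the KLFs, KLF4 and KLF5 are known for epithelial differentiation and for proliferation of basal epithelial cells, KLF2 and KLF6 for restraint of growth, KLF10 as an early response gene of TGF-β, and KLF3 and KLF13 mainly as repressors. The data concern accessibility of the genes that encode these factors, not the binding of the factors.

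The 6 lists differed in length, from 18887 regions in ZnCl2 replicate 2 and 25031 in control replicate 1 to 44641 in control replicate 2. The depth of the libraries is unknown because no read counts were used, so each score was turned into a percentile, the percent of regions in the same list with a lower score. A start site was the 5' end of the gene, and a value was called higher or lower in one group when both of its libraries lay above or below both libraries of the other. With 2 libraries against 2, a two-sided exact permutation test cannot give a p below 0.333, so no single difference can reach 0.05, and each count was read against the percent of all genes or regions that met the same rule. Sources differ on whether the replicates are biological, and the tests measure only the spread between these libraries. Of 7 basal mammary markers, ITGB4 and LAMB3 had an open start site in all 6 libraries, KRT5, KRT17 and EGFR in 5, KRT14 in 4 and TP63 in none. The canonical start of TP63 was also open in none, and other starts inside that gene were not examined. KRT8 and KRT18, markers of epithelium, were open in all 6, while CDH1 was open in 3. KRT8 and KRT18 had the same percentile in every library, so they do not count as separate observations. At its canonical start KRT8 was open in 3 libraries. Of 7 markers of blood, endothelium, fibroblast, liver and glia, 5 were open in no library.

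The sequence before the start sites is shown for KLF5, where the annotation offers 2 starts that differed in accessibility, and for KLF2, KLF13 and SP1, whose start sites ranked among the lowest of the members (KLF2) or near the top (KLF13 and SP1) among the open regions. The letters are the 200 bases upstream of each start, 5' to 3' on the strand of the gene, from RefSeq on GRCh38.p14, and capitals mark GC boxes, GGGCGG or its reverse complement CCGCCC. The KLF5 stretches are chr13:73054776-73054975 for the 5' end of the gene and chr13:73058805-73059004 for the start of its canonical transcript, 4029 bp further on. The others are chr19:16324626-16324825 for KLF2, chr15:31326635-31326834 for KLF13 and chr12:53379976-53380175 for SP1, all 5 on the plus strand.
KLF5, gene 5' end: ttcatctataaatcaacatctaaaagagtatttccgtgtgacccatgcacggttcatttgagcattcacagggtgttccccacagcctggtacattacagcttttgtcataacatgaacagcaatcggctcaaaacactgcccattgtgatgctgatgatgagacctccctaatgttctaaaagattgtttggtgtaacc
KLF5, canonical start: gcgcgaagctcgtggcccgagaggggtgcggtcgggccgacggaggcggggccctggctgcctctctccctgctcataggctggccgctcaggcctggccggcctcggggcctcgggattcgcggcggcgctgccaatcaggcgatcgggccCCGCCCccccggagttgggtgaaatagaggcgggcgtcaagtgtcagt
KLF2: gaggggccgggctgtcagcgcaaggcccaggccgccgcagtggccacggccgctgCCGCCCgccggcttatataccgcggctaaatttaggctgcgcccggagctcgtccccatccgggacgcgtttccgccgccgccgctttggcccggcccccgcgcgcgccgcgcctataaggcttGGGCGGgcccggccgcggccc
KLF13: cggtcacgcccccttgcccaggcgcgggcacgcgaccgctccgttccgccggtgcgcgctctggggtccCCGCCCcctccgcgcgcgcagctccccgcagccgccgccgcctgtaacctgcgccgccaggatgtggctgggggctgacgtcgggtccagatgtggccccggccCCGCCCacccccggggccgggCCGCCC
SP1: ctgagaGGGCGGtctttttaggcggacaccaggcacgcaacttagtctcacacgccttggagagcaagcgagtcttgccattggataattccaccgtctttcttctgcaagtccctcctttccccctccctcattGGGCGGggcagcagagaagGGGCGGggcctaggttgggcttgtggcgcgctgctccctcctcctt
The stretch at the 5' end of KLF5 held no GC box and 42% G and C, against 1 GC box and 73.5% G and C at its canonical start. KLF2 held 2 GC boxes in its stretch, KLF13 held 3 and SP1 held 3. A promoter of 300 bases, 250 before and 50 after the start, was available for 8 members at the canonical start, and KLF3 and KLF10 were not among them. All 8 held at least 1 GC box on either strand, with 2 to 6 each, whereas 44.9% of 34943 promoters did. These shares come from unlike sets. All 8 were open in all 6 libraries, against 32.0% of the 34943 (14.5% of those with no GC box, 59.6% with 2 or more). CACCC was found in 3 of the 8 and in 59.8% of all promoters, and the longer form CCACACCC in 0 of the 8 and in 3.28% of all. The share of G and C ranged from 58% to 80.7% in the 8 promoters, and all but SP2 lay above the median of 58.7% over all promoters. These matches describe letters and do not show that a factor was bound.

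Nearly all start sites of these genes were open in every library. A region covered the 5' end in each of the 6 libraries for 9 members, and KLF5 was the exception with none, while 39.4% of protein-coding genes had an open 5' end in all 6 libraries and between 43.6% and 57.6% in a single one. At the start of the canonical transcript all 10 members were open in all 6 libraries, including KLF5, against 43.0% of protein-coding genes. Of the other 16 family genes, KLF12, KLF16 and SP4 were open at the 5' end in all 6 libraries and 6 were open in none. At the canonical start KLF7, KLF11 and SP6 joined those open in all 6.

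The members fell into a high and a more variable set. KLF5, at its canonical start, had percentiles of 96.0 and 98.8 for control replicates 1 and 2, of 96.5 and 96.3 for TPA and of 98.3 and 97.7 for ZnCl2. KLF10 stood at 99.2 and 99.5, then 98.7 and 98.2, then 98.3 and 97.02, in the same order of groups. KLF13 stood at 98.9 and 99.0, then 98.7 and 97.7, then 97.3 and 97.5. These KLFs therefore stayed within the top 4% of scores in every library. SP1 stood at 96.2 and 96.1 in the control, at 97.7 and 97.02 after TPA and at 97.9 and 97.3 after ZnCl2. SP2 stood at 96.6 and 97.8, 94.9 and 96.9, and 95.7 and 97.4. Both SPs thus ranked at 94.9 or above, and the order among these 5 genes changed from library to library.

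KLF2, KLF3, KLF4, KLF6 and SP3 ranked lower and spread further. KLF6 stood at 79.9 and 74.1 in the control, at 80.8 and 85.4 after TPA and at 85.8 and 72.9 after ZnCl2. SP3 stood at 79.9 and 93.2, 71.3 and 84.9, and 87.9 and 63.6, so its groups overlapped in every comparison. In control replicate 1, the regions of KLF3, KLF6 and SP3 shared a score of 64 with 226 regions in all, so their percentiles there are equal. Over the 9 members with an open 5' end, the median percentile was 78.8 to 95.0 by library, against 66.6 to 80.6 for the open start sites of all protein-coding genes.

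**Figure D1:**
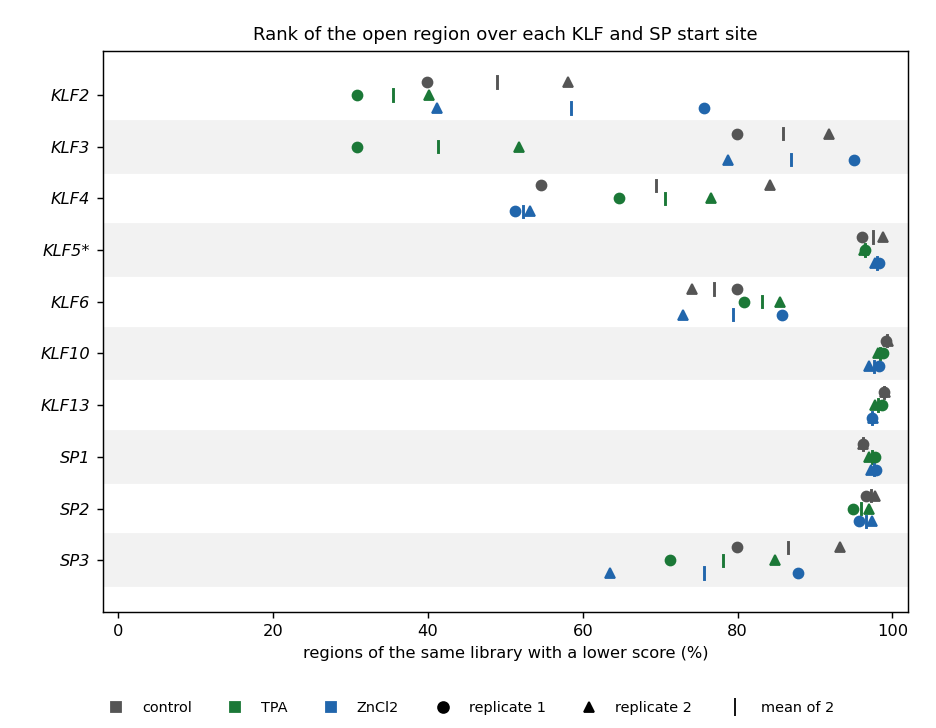
Percent of regions in the same library with a lower score (x axis) for the region over the start site of each gene (y axis), with circles for replicate 1, triangles for replicate 2 and bars for the mean of 2 libraries. KLF5 is marked with an asterisk because its canonical start is shown. KLF3 stood at 30.8 and 51.8 with TPA and at 78.8 or more in the control and with ZnCl2, while KLF5, KLF10, KLF13, SP1 and SP2 stayed at 94.9 or above.

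TPA was compared with the control to ask which members changed rank when Zn2+ was withdrawn. KLF3, which encodes a repressor, gave the largest difference among the members. Its start-site region stood at 79.9 and 91.8 in the control and at 30.8 and 51.8 with TPA, while ZnCl2 gave 95.0 and 78.8. Both TPA libraries thus lay below the 4 others, with no overlap. The mean was 85.8 ± 8.38 (SD, n = 2) in the control and 41.3 ± 14.8 (SD, n = 2) with TPA, a difference of -44.53 percentile points (SE 12.05). The two-sided exact test over these 4 libraries gave p = 0.333, its lowest value. A difference as low was seen for 85 of 8915 protein-coding genes tested, or 0.953%. Leaving out each of the 4 libraries in turn gave differences from -55.02 to -34.04 points.

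Counted from the top score, the KLF3 region was number 4804 and 3576 in the control, 24007 and 19367 after TPA, and 1850 and 3866 after ZnCl2. The region did not close, since it was listed in all 6 libraries, and its width of 2350 bp in both TPA libraries lay between the 1780 and 3200 bp of the control. When each list was shortened to its 18887 highest scores, the KLF3 region was kept in both control and both ZnCl2 libraries and in neither TPA library. The region, chr4:38662991-38666190 after merging the 6 lists (hg38), also covers the start of KLF3-AS1, an antisense RNA gene, and ATAC-seq does not separate the 2 starts. The same holds for 6 other members, whose start-site regions cover the start of KLF2-DT (KLF2), SP2-DT (SP2), ENSG00000289987 (KLF4), ENSG00000288755 (KLF6), ENSG00000283959 (KLF10) and ENSG00000289296 (SP3). A second KLF3 region, in an intron with its center 2981 bp beyond the canonical start, stood at 67.7 and 74.7 in the control, 60.7 and 67.00 after TPA and 80.7 and 48.9 after ZnCl2. Its TPA libraries were also both below the control, a difference of means of -7.37 points (exact permutation p = 0.333).

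The other members moved less with TPA. Of the 9 tested, 3 were lower in both TPA libraries than in both control libraries, KLF3, KLF10 and KLF13, where 21.9% of protein-coding genes met that rule, and 2 were higher, KLF6 and SP1, where 11.8% did. The differences were -0.88 points for KLF10 (SE 0.303) and -0.77 for KLF13, and 6.10 for KLF6 (SE 3.72) and 1.19 for SP1, so that 3 of these 4 were under 2 points. The median over the members was -0.88 points, and that over all 8915 genes was -0.07. KLF2 differed by -13.48 points, SP3 by -8.48, SP2 by -1.28 and KLF4 by 1.20, all with overlapping groups. The count of lower members was 6 without TPA replicate 2 and 7 without control replicate 1, and a group of 1 library makes non-overlap more frequent by construction. By number from the top in place of percentile, 6 members were further from the top with TPA (KLF2, KLF3, KLF10, KLF13, SP2 and SP3), where 40.1% of genes were, and 0 were nearer, where 12.9% were. KLF6 and SP1 thus kept a higher percentile but were not called by this measure.

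Family genes outside the 10 were taken for comparison. Of the 4 that could be tested at the 5' end, KLF12 (-33.48 points), KLF16 (-13.83) and SP4 (-7.03) were lower in both TPA libraries, where 21.9% of all genes were, and KLF15 differed by 27.7 points with overlapping groups. At the canonical start, where 7 could be tested, KLF11 (-40.07) and SP6 (-20.73) were also lower with TPA, which makes 5, and 22.3% of all genes were lower there. Below the control with ZnCl2 were KLF16 (-2.51 points), 1 of 3 tested at the 5' end (13.6% of all genes), and at the canonical start also KLF7 (-4.57), which makes 2 of 6 (13.1%). KLF12, KLF16 and SP4, the 3 tested at the 5' end, were lower with TPA than with ZnCl2, where 17.7% of all genes were. At the canonical start KLF11 was also lower, by -44.52 points, which makes 4 of 6 (17.8%).

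**Figure D2:**
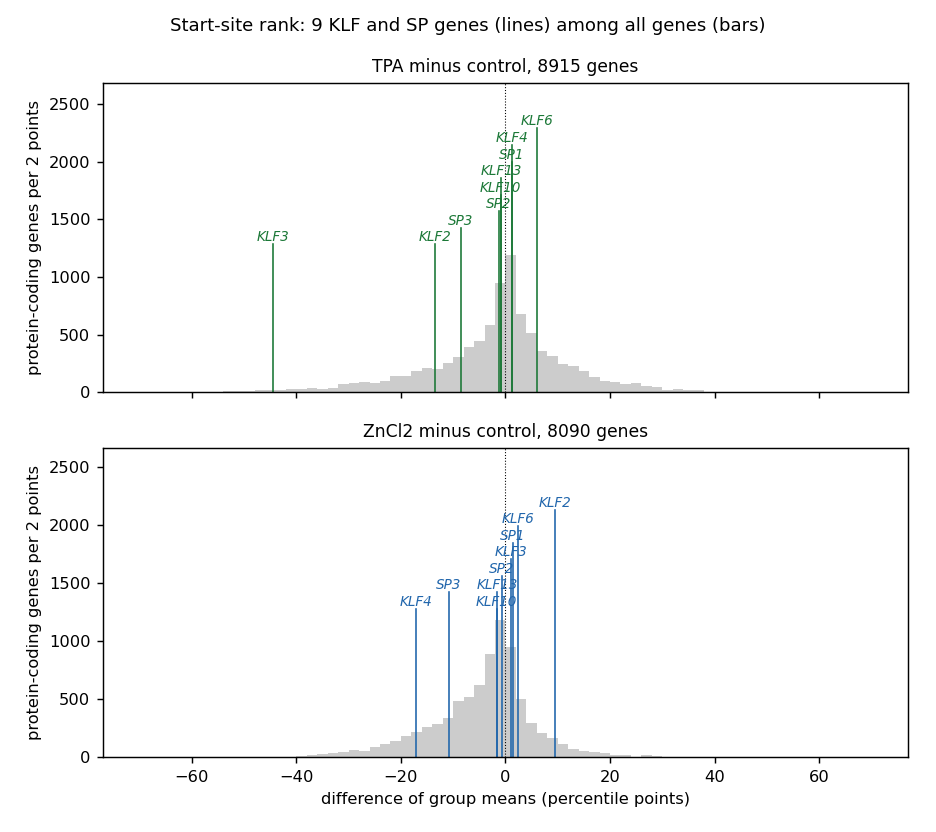
Number of protein-coding genes (bars, 2 percentile points each) by the difference of group means for TPA minus control (8915 genes, above) and ZnCl2 minus control (8090 genes, below), with the 9 tested members as lines at their own difference. The height of a line has no meaning. KLF3 at -44.53 with TPA lies in the lower tail, and with ZnCl2 it lies at 1.04, close to the center.

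ZnCl2 was compared with the same control libraries to ask what an excess of Zn2+ did, so the 2 treatments' differences are not independent. KLF4, which is known for terminal differentiation of epithelium, had the largest difference. It stood at 54.7 and 84.1 in the control, 51.3 and 53.2 after ZnCl2 and 64.7 and 76.5 after TPA. Both ZnCl2 libraries lay below the others, although control replicate 1 was close to the nearer of them. The means were 69.4 ± 20.8 (SD, n = 2) in the control and 52.3 ± 1.35 (SD, n = 2) with ZnCl2, which differ by -17.14 points (SE 14.8, exact permutation p = 0.333). Without control replicate 2 the difference was -2.41 points, and the call was lost when lists of equal number or numbers from the top were used.

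Of the 9 members, 3 were lower in both ZnCl2 libraries, KLF4, KLF10 (-1.68 points) and KLF13 (-1.56), where 13.6% of protein-coding genes were, and 1 was higher, SP1 (1.42), where 2.74% were. The median over members was -0.66 points and that over the 8090 genes tested was -2.78. KLF3 differed by 1.04 points, KLF6 by 2.36, SP2 by -0.66, KLF2 by 9.48 and SP3 by -10.84, each with overlapping groups. Both counts rose when a library was left out, and a group of 1 library makes non-overlap more frequent by construction. By number from the top, SP1 and KLF2 were nearer the top with ZnCl2, where 24.5% of genes were, and KLF10 and KLF13 were further from it, where 17.6% were. SP1, the general activator of GC-box promoters, was the only member higher than the control with both treatments, by margins of under 2 points.

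TPA and ZnCl2 were also set against each other. KLF3 was lower with TPA by -45.57 points (SE 13.3), a value as low as that of 84 of 8117 genes. KLF2, whose start-site region stood at 39.9 and 58.0 in the control, 30.8 and 40.1 after TPA and 75.7 and 41.2 after ZnCl2, was lower by -22.96 points (SE 17.9). The nearest KLF2 libraries, TPA replicate 2 and ZnCl2 replicate 2, lay close together, and without ZnCl2 replicate 1 the difference was -5.69 points. KLF4 was higher with TPA than with ZnCl2 by 18.4 points (SE 5.99) and KLF13 by 0.80. Of the 9 members, 2 were thus lower with TPA, where 17.7% of genes were, and 2 higher, where 21.8% were. The lower count rose without ZnCl2 replicate 2 and the higher without ZnCl2 replicate 1, where a group of 1 library makes non-overlap more frequent. By number from the top, KLF2, KLF3, KLF6 and SP1 were further from the top with TPA (46.6% of genes) and 0 were nearer (15%).

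The start-site regions also differed in width. KLF6 ranged from 1910 bp in TPA replicate 2 to 8730 bp in control replicate 2. Within the stretch that control replicate 2 listed as a single region, TPA replicate 2 also listed separate regions of 1710 and 1360 bp. The range thus includes how regions were joined. SP1 had widths of 3600 and 2170 bp without treatment, 3720 and 3920 bp after TPA, and 4280 and 4860 bp after ZnCl2. It was the only member wider than the control in both libraries of a treatment, with TPA (1.82% of genes were) and with ZnCl2 (10.7%). That call depends on where the regions were split. Control replicate 2 listed the start-site region of SP1 as chr12:53378681-53380850 and, just beyond it, another of 3090 bp, chr12:53381021-53384110. The widths with these joined were not tested. KLF2, at 1480 and 2150 bp untreated and 1250 and 1030 bp after TPA, was the only one narrower with TPA (16.5%). KLF6 was the only one narrower with ZnCl2 (2.61%), at 2660 and 3300 bp against 3390 and 8730 bp in the control. The nearest of these, 3300 and 3390 bp, lay close together. Against ZnCl2, 5 members were narrower with TPA (KLF2, KLF3, KLF4, SP1 and SP2), where 54.8% of genes were, and 0 of the 9 were wider (2.7%). The canonical start of KLF5 was 4870 and 5310 bp wide after TPA and 3640 and 2480 bp after ZnCl2, and its control libraries, at 2140 and 5200 bp, spanned nearly that whole range. The median over members was 3000 to 3840 bp by library, against 1690 to 2760 bp for all open protein-coding start sites.

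**Figure D3:**
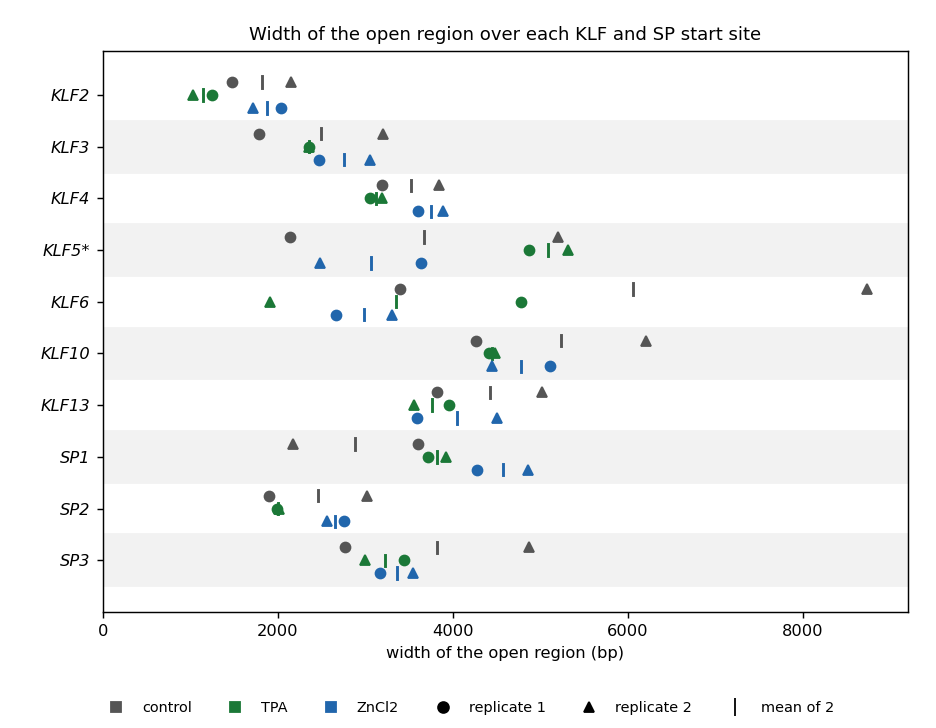
Width in bp (x axis) of the open region over the start site of each gene (y axis), with circles for replicate 1, triangles for replicate 2 and bars for the mean of 2 libraries. KLF5, marked with an asterisk, is shown at its canonical start. SP1 was widest with ZnCl2, at 4280 and 4860 bp, and KLF6 in control replicate 2 reached 8730 bp.

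Beyond the start sites, the windows held 43 merged regions (regions of the 6 lists joined where they overlap), of which 20 (46.5%) were open in all 6 libraries, against 32.0% of the 49527 merged regions of the whole genome. The 10 over a member's start site, at the 5' end or for KLF5 at the canonical start, were all open in all 6. The other 33 lay downstream (15), upstream (7), in an exon of the member (6) or in an intron (5), and 10 of them were open in all 6. By library, 14 and 29 of the 33 were open in the control, 24 and 26 after TPA, and 23 and 10 after ZnCl2. The shortest lists, control replicate 1 and ZnCl2 replicate 2, thus held the fewest. The windows held 25 and 41 regions in the control, 35 and 41 after TPA, and 34 and 20 after ZnCl2. The control libraries overlapped with both treatments. Both TPA libraries held more than either ZnCl2 library, but as a share of each list the values were 0.0975% and 0.0991% after TPA and 0.0893% and 0.106% after ZnCl2, which overlap.

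Of the 43 regions, 2 were open in both TPA and neither control library, where 2.04% of all merged regions were. One lies 9.2 kb downstream of the canonical start of KLF4, at chr9:107480171-107480970, between genes. Its percentiles were 6.79 and 18.1 after TPA, it was listed in no control or ZnCl2 library, and it was therefore among the weakest regions of both TPA lists. The other overlaps an exon of KLF13 46.4 kb from the start, at chr15:31371941-31374570, with 6.79 and 18.1 with TPA and 21.2 in ZnCl2 replicate 1. Both have low scores, and neither is kept when the lists are of equal number. The central 200 bases of the stretch of the KLF4 region that both TPA libraries list are shown because this was the only region open in both libraries of 1 treatment and in no other library around these genes. They are chr9:107480551-107480750 on the plus strand of hg38, and capitals mark GGGTG, the reverse complement of CACCC.
KLF4 downstream region: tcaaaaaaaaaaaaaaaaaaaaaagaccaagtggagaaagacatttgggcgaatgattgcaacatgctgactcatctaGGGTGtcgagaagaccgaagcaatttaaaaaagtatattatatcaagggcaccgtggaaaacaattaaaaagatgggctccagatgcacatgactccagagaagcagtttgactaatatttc
The stretch held 36.5% G and C and no GC box. The stretch at the 5' end of KLF5 also held none, while the other stretches shown above held 1 to 3 GC boxes.

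No region was open in both control and neither TPA library (0.703% of all merged regions), none in both ZnCl2 and neither control library (0.172%), and none in both control and neither ZnCl2 library (1.73%). These counts, and that for TPA and not the control, rose when a library was left out. A group of 1 library makes such calls more frequent by construction. The share of all merged regions with a library left out is not given. Against ZnCl2, 5 regions were open with TPA and not ZnCl2, at KLF2, KLF4, KLF5, KLF6 and SP3, where 9.73% of all regions were, and 0 the reverse, where 0.991% were. The first count rose without ZnCl2 replicate 1 and the second without ZnCl2 replicate 2, with the same limit.

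With lists of equal number, 24 merged regions remained at the members. Of these, 3 were open in both control and neither TPA library, the start-site regions of KLF2 and KLF3 and a region 50.6 kb downstream of the start of SP2, where 4.55% of the 26212 regions were. The reverse held for 1, at KLF6 (3.79%). For ZnCl2, 1 region at KLF13 was open with ZnCl2 and not in the control (3.20%) and 0 the reverse (3.64%). Between the treatments, 6 were open with ZnCl2 and not TPA (8.31%) and 2, both downstream of KLF6, with TPA and not ZnCl2 (7.81%).

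**Figure D4:**
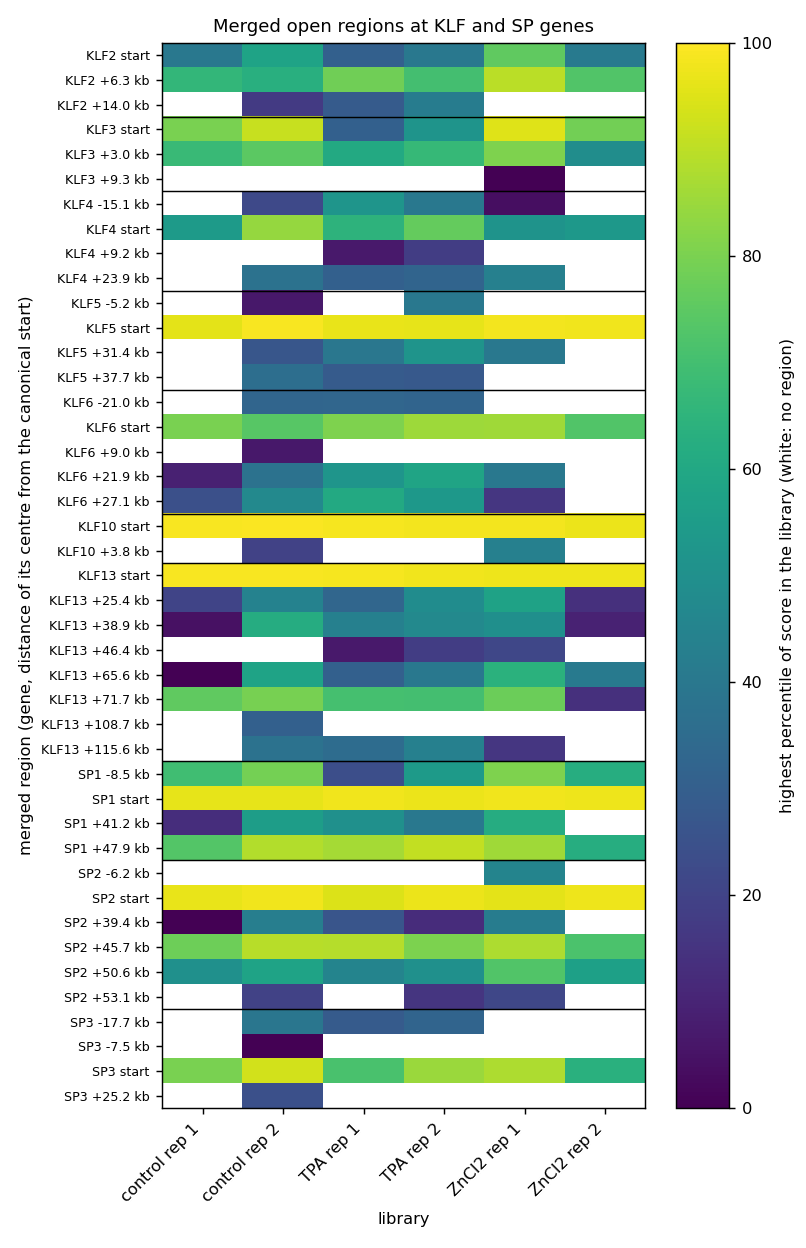
Highest percentile of score in each library (color) for the 43 merged regions at the 10 genes (rows, named by gene and distance of the region's center from the canonical start) in the 6 libraries (columns), with white where a library lists no region. The start-site rows are filled in all 6 columns, and most white cells fall in the columns of control replicate 1 and ZnCl2 replicate 2.

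Among 32 regions that cover no start site of a protein-coding gene, rank could be compared where all 4 libraries listed the region. For TPA against the control, 13 could be compared. Of these, 3 were higher with TPA, where 33.6% of 13397 such regions were, and 3 were lower, where 5.96% were. The lower ones were the intronic KLF3 region given above, an intronic region of KLF13 71.7 kb from its start and the region upstream of SP1. The SP1 region, upstream at chr12:53370311-53373000 (-8.5 kb) and outside annotated genes, stood at 69.2 and 79.0 in the control, 23.9 and 54.6 after TPA and 80.7 and 62.1 after ZnCl2. Both TPA libraries lay below the 4 others, with a mean of 39.3 against 74.1 in the control, -34.84 points apart (exact permutation p = 0.333), while the start site of SP1 itself was 1.19 points higher. Leaving out each library in turn gave differences from -50.18 to -19.50.

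The higher ones were 1 region at KLF2 and a pair at KLF6. The KLF2 region, 6.3 kb downstream of the start at chr19:16330011-16332300, stood at 66.1 and 62.97 in the control, 78.4 and 70.1 after TPA and 89.5 and 72.9 after ZnCl2. It was higher than the control in both libraries of both treatments, by 9.72 and 16.7 points, and it outranked the start site of KLF2 in every library. The KLF6 regions lie 21.9 and 27.1 kb from the start, beyond the end of the gene, and overlap an exon of ENSG00000229672. The nearer one, chr10:3761641-3765050, stood at 9.08 and 37.9 in the control, 52.0 and 58.6 with TPA and 40.2 in ZnCl2 replicate 1, and was not listed in ZnCl2 replicate 2. The farther one stood at 24.2 and 47.1 in the control, 60.7 and 53.2 with TPA and 15.8 in ZnCl2 replicate 1. With TPA both ranked above every control library, by means of 31.8 and 21.3 points, in a direction shared by 33.6% of such regions. Both counts rose when a library was left out. That leaves 1 library in a group and changes which regions can be compared, so the shares above do not apply.

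For ZnCl2 against the control, 9 regions could be compared, and 1 was higher, the KLF2 region (2.63% of 8321 regions), and 0 lower (21.6%). Both counts rose when a library was left out. That leaves 1 library in a group and changes which regions can be compared, so these shares do not apply. For TPA against ZnCl2, 3 of 9 were lower, at KLF13, SP1 and SP2 (6.88% of 8686 regions), and 1 was higher, 47.9 kb downstream of the start of SP1 over an exon of AMHR2 (51.2%). These counts also rose without ZnCl2 replicate 2, with the same limits.

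**Figure D5:**
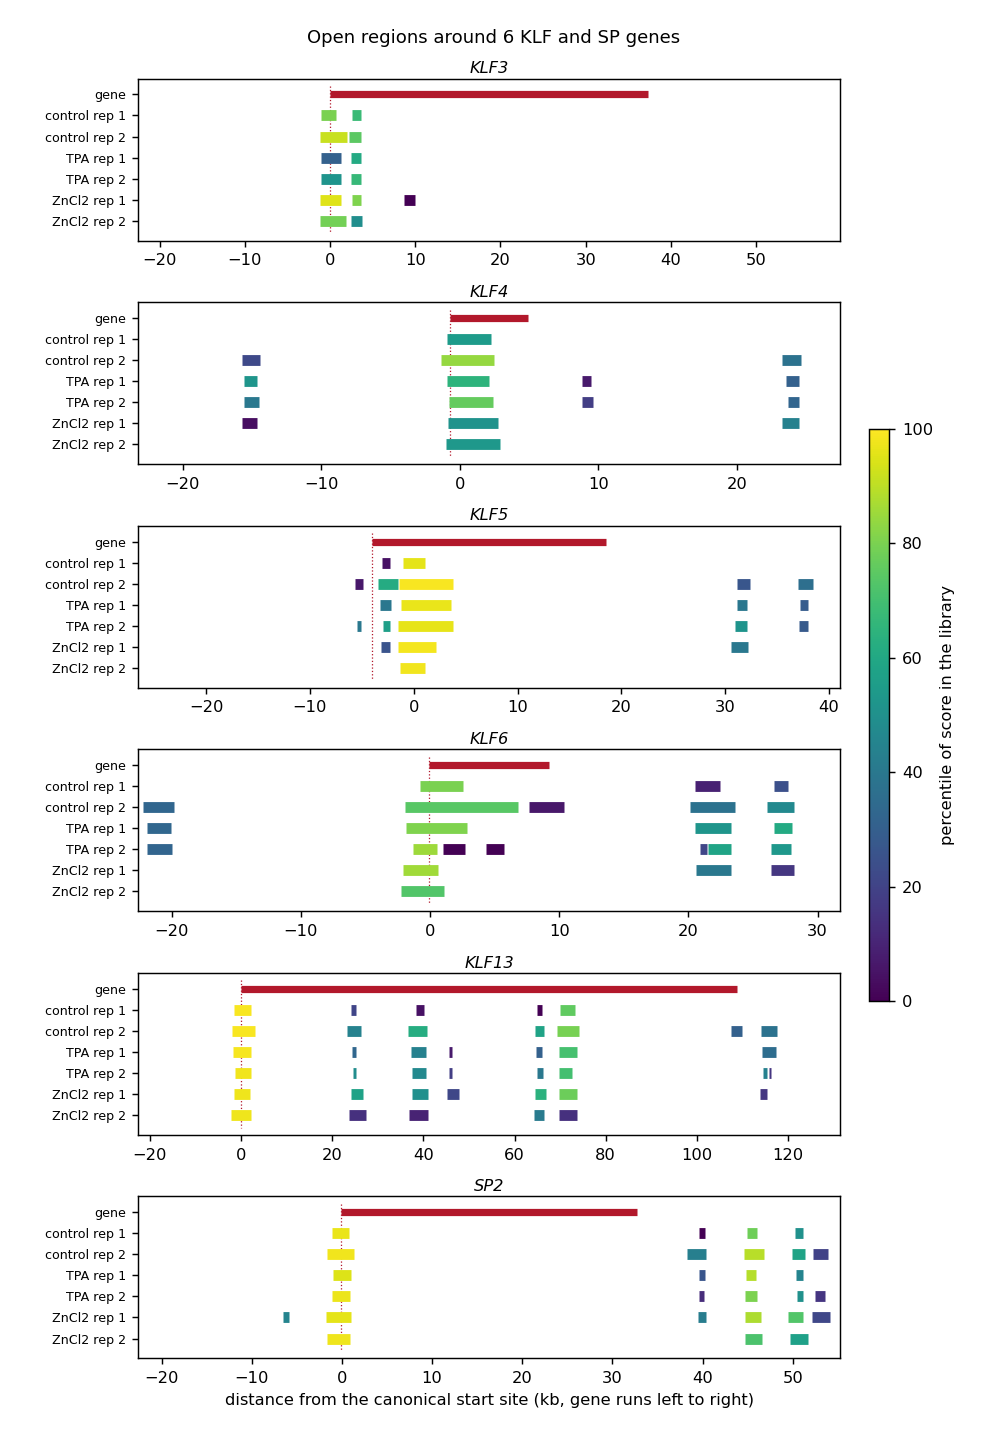
Open regions (bars, colored by percentile of score) in the 6 libraries around KLF3, KLF4, KLF5, KLF6, KLF13 and SP2, by distance in kb from the canonical start, with the gene in red and its 5' end as a dotted line. The KLF5 bars of every library lie over 0 and not over its 5' end, the KLF3 bar at 0 is darker in both TPA libraries, and the KLF4 bars at about 9.2 kb appear with TPA only.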

How the data were processed

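ATAC-seq libraries from MCF10A cells were grouped by the treatment in the labels (control, TPA, ZnCl2; 2 each). The authors checked reads with FastQC 0.11.8, trimmed them with BBDuk, mapped them to hg38 with HISAT2 2.1.0, processed the alignments with SAMtools 1.8 and called open regions per library with HMMRATAC, whose version and kind of score are not given in the sources used here. Each deposited list gives positions and a whole-number score per region, without read counts, so depth is unknown and no counting interval is given. No blacklist was applied here.

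Only chromosomes 1 to 22, X and Y entered. Genes, exons and start sites came from GENCODE release 44, on the same build as the lists. Scores were converted to percentiles within a list, since they need not share a scale, and regions of the 6 lists were merged where they overlapped by 1 bp or touched. Single values were tested by exact permutation of the libraries (two-sided, difference of means), and calls rest on non-overlap. All 10 members are named, and other family genes only if open in all 6 libraries or called. The members and lists were chosen with earlier results of these data known, and the comparison of regions away from start sites was added after values were seen. Alternatives were the upper 50% of each list, equal numbers of regions, all contigs, other start sites, flanks, overlaps and ranks, each library left out, and a replicate block. The ranking of the strongest regions away from start sites is not reported here. Procedures were tested on simulated data. Python 3.11.15, NumPy 2.4.6, pandas 2.3.3, SciPy 1.17.1, Matplotlib 3.10.9 and bedtools 2.31.1 were used.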

Additional observations from a re-analysis of the deposited data

How the results depend on the processing

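Depth is unknown, and the 2 shortest lists limit what absence of a region means. Among the recomputed values of called members and regions, 0 reversed the direction. Counts, medians and members not called could not be scored this way, and some of them changed sign. KLF2, not called for TPA against the control, went from -13.48 to 9.72 points under the highest percentile in the window. The median over members for TPA against ZnCl2 went from 0.79 to as low as -1.98 points. The lower rank of KLF3 with TPA against the control held under every alternative that gave a value, from -55.02 to -21.98 points, and with equal numbers or the upper 50% of each list it could not be tested because a TPA library listed no region there. Called members that were no longer called were KLF6 and SP1 (TPA against control), KLF4 (ZnCl2 against control and against TPA) and KLF13 (TPA against ZnCl2), each under equal numbers and numbers from the top, and KLF2 (TPA against ZnCl2) under the highest percentile in the window. Away from start sites, the higher rank with TPA than in the control was no longer called for the KLF2 region under equal numbers and numbers from the top, nor for the farther KLF6 region under numbers from the top. The cause was not tested.

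For TPA against the control, members higher were 0 under equal numbers and numbers from the top, and members lower were 6 under numbers from the top. For ZnCl2 against the control, members higher were 2 under equal numbers, numbers from the top and the highest percentile in the window. Without the shortest lists, this comparison keeps 1 library per group, so each member is called unless its 2 values are equal. In the comparisons with TPA, that setting equals leaving out 1 library, so its counts are not repeated. For TPA against ZnCl2, members higher were 0 under equal numbers and numbers from the top. Members lower were 0 in the upper 50% and 4 under numbers from the top. The median over members was -456 places under numbers from the top. Any library left out leaves 1 in its group, which makes calls more frequent by construction. Leaving out each library in turn gave 3 to 7 lower and 2 to 3 higher (TPA against control), 3 to 6 lower and 1 to 4 higher (ZnCl2 against control), and 3 to 5 lower and 2 to 5 higher (TPA against ZnCl2).

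Merged regions open with TPA and not in the control were 1 under equal numbers and under an overlap of at least 50%, and the reverse 3 under equal numbers. Those open with ZnCl2 and not in the control were 1 under equal numbers. Without the shortest lists, 1 library per group remained for this comparison, and its counts are not read. Those open with TPA and not with ZnCl2 were 2 in the upper 50%, under equal numbers and with a flank of 10 kb. The reverse were 6 under equal numbers and 3 under an overlap of 50%. Any library left out leaves 1 in its group, which makes such calls more frequent by construction. Leaving out each library gave 2 to 10 and 0 to 5 (TPA and control), 0 to 3 and 0 to 9 (ZnCl2 and control), and 5 to 14 and 0 to 3 (TPA and ZnCl2). The mean number of regions per library in the windows, 32.7, was 18.2 in the upper 50%, 18.8 under equal numbers and 50.2 with a flank of 50 kb.

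Among regions away from start sites, those higher with TPA than in the control were 1 in the upper 50% and under equal numbers and those lower 6 under numbers from the top. Those higher with ZnCl2 than in the control were 3 under equal numbers and 5 under numbers from the top. Those lower with TPA than with ZnCl2 were 0 in the upper 50% and 7 under numbers from the top. A library left out changes which regions can be compared and makes calls more frequent by construction. Leaving out each library gave 3 to 9 higher and 3 to 11 lower (TPA against control), 1 to 8 and 0 to 5 (ZnCl2 against control), and 1 to 5 and 3 to 12 (TPA against ZnCl2).

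The labels give the groups the same replicate numbers but no other tie. Deviations of same-numbered libraries over 7877 genes correlated at 0.17 for TPA and control, -0.46 for ZnCl2 and control and -0.14 for TPA and ZnCl2. With the replicate block, members lower with TPA than in the control were 6 and than with ZnCl2 were 4, and regions away from start sites higher with TPA than in the control were 5. The block asks only that both paired differences share a sign, a looser rule than non-overlap. The share of all genes or regions under it is not given. With crossed numbers, an alternative chosen after seeing the data like that without the shortest lists, 2 members were higher with ZnCl2 than in the control.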

Other observations

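Promoters of all genes were grouped by the GC box that KLF and SP proteins bind, over the 300 bases of each RefSeq promoter. The start was open in all 6 libraries for 14.5% of 19265 promoters with no GC box, 44.8% of 6358 with 1 and 59.6% of 9320 with 2 or more. Among promoters open in the 4 libraries compared, 14.8%, 18.7% and 28.0% in the same order were lower in rank in both TPA libraries than in both control libraries, and 16.5%, 13.7% and 9.12% were higher. The median difference was 1.45, 0.50 and -1.41 points. For ZnCl2 against the same control, 15.4%, 15.1% and 12.5% were lower and 1.78%, 2.40% and 3.08% higher. Promoters of 1 gene can overlap and share a region, these are descriptions without a test, and whether base composition or list length moves with them was not tested.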
